A study of Mus musculus with 6 samples.

Results

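The 10 genes described here are the core of the Notch pathway as the arrays read it: the receptors Notch1, Notch2, Notch3 and Notch4, the ligands Dll1, Dll4, Jag1 and Jag2, and the target genes Hey1 and Hey2. They were taken by gene symbol from 19938 genes, each read from its brightest row on average, and every member had a single row that carried its symbol alone. The samples are mouse embryonic stem cells of the W4/129S6 background in which a knock-in places green fluorescent protein (GFP) under control of Nkx2-1, a transcription factor gene of lung, thyroid and forebrain. The cells were differentiated for 14 days and sorted into GFP-positive cells (Nkx2-1 high, genotype label Nkx2-1GFP+, 3 samples) and GFP-negative cells (Nkx2-1 low, genotype label Nkx2-1GFP-, 3 samples). All 6 samples come from cells with the same reporter, and the fractions differ by the sort alone, so each fraction can still hold several cell types. The samples are called biological replicates, but no source used here says that they came from separate differentiations, so p-values measure the spread between these samples.

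Notch is a receptor cut by proteases when a ligand on a neighbouring cell binds it. The freed intracellular part enters the nucleus, joins the DNA-binding protein RBPJ and switches on targets such as the Hes and Hey genes, which encode basic helix-loop-helix repressors. In the developing lung the pathway is known for setting the balance of airway secretory and ciliated cells, and in blood vessels, somites and the nervous system for arterial identity, segmentation and the upkeep of progenitors.

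Values are log2 expression from robust multi-array averaging (RMA). Differences are Nkx2-1 high minus Nkx2-1 low on that log2 scale, ± the standard error (SE) from limma. A gene "rose" where it was higher in Nkx2-1 high, and "fell" where it was lower, at a limma adjusted p under 0.05 over all 19938 genes. A background level of 4.27 was taken from olfactory and vomeronasal receptor genes, and all 10 members were above it in both groups. Nkx2-1 itself, the sorted gene, rose by 2.39 ± 0.08. Samples of a group correlated across genes at Pearson r from 0.994 to 0.996.

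Of the 10 members, Hey2 rose, Notch1, Notch2 and Hey1 fell, and the other 6 did not pass. Of all genes tested, 6.0% passed in either direction, 2.90% rose and 3.09% fell; of the 13513 genes above background in at least 1 group, 8.36% passed. The median difference was 0.02 over the members and -0.01 over all genes. The groups did not overlap for 5 of the 10 members, against 24.7% of all genes and 31.2% of those above background. With 3 samples against 3, an exact two-sided permutation test of a single gene cannot go below p = 0.1, which these 5 reached. Without both samples numbered 3, which lay apart from those numbered 1 on the second principal component, 3 members passed, and Hey1 was the member lost.

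**Figure D1:**
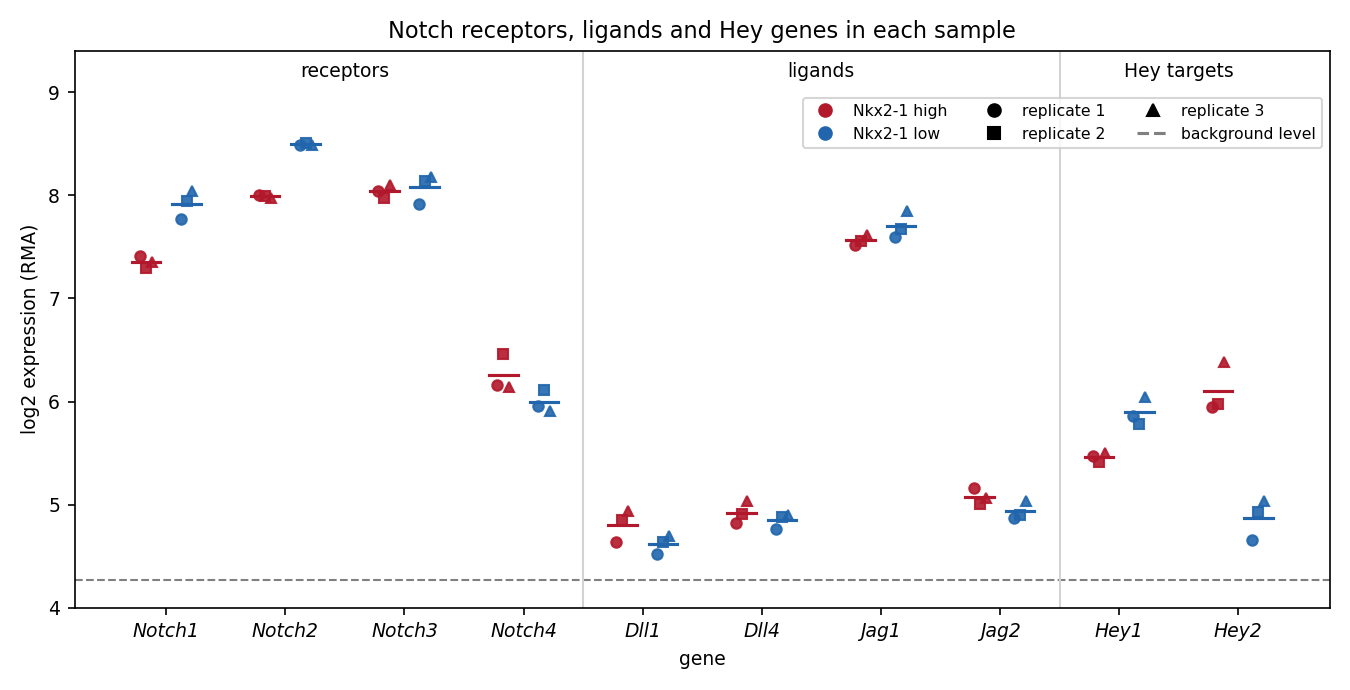
Log2 expression (RMA, vertical axis) of each member (horizontal axis) in the 3 Nkx2-1 high samples (red) and the 3 Nkx2-1 low samples (blue); marker shapes give the replicate number, short lines the group means and the dashed line the background level of 4.27. Levels are to be compared within a gene only. For Notch1, Notch2, Notch4, Hey1 and Hey2 the red and blue points do not overlap, and Hey2 shows the widest gap.

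Among the receptors, Notch1 and Notch2 were lower in Nkx2-1 high by similar amounts. Notch1, a receptor with roles in neural progenitors, blood and arteries, stood at 7.42, 7.30 and 7.35 in Nkx2-1 high and at 7.77, 7.95 and 8.04 in Nkx2-1 low. Every Nkx2-1 high sample lay below every Nkx2-1 low sample. The difference was -0.56 ± 0.09, a 1.48-fold lower level (limma adjusted p = 0.00568). Leaving out any single sample kept the call, with adjusted p up to 0.0348 and differences from -0.64 to -0.50.

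Notch2, a receptor with a role in kidney, liver and vessel development, stood at 8.00, 7.99 and 7.97 in Nkx2-1 high and at 8.49, 8.51 and 8.49 in Nkx2-1 low. The replicates were nearly identical within each group, and the gap between the groups was far wider than their spread. It fell by 0.51 ± 0.07 on the log2 scale, or 1.42-fold (limma adjusted p = 0.00291). Its pooled standard deviation within groups was 0.0136, at the 0.0903 percentile of all genes, and limma moderates so small a value upward before the test.

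Markers of mesenchyme and neurons were lower alongside Notch1 and Notch2. Of 9 mesenchyme genes 7 fell and 0 rose, with a median difference of -1.11, and their mean log2 level ran from 7.42 to 7.84 in Nkx2-1 high and from 8.75 to 9.11 in Nkx2-1 low. The widest falls there were those of Postn, a matrix protein gene (-2.34 ± 0.16), the homeobox gene Prrx1 (-1.90 ± 0.14) and Pdgfra, a growth factor receptor gene, which averaged 8.53 ± 0.23 (SD, n = 3) among Nkx2-1 low samples and 6.53 ± 0.36 (SD, n = 3) among the Nkx2-1 high ones. Of 11 neuronal genes 6 fell and 0 rose, with a median of -0.62 and a mean level from 4.79 to 5.07 in Nkx2-1 high and from 5.60 to 5.66 in Nkx2-1 low. Ina, a neuronal intermediate filament gene, fell by 1.58 ± 0.14, and Tubb3, the gene of a neuronal tubulin, fell by 0.84 ± 0.11.

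The other marker lists held fewer calls. Of 9 neural progenitor genes Fabp7 and Nes fell and 0 rose, with a mean level from 5.40 to 5.55 against 5.52 to 5.71, and the count became 1 with arrays centred on their medians. The labelled endodermal identity was checked in the same way. Of 8 endoderm and epithelium genes 7 were above background, Sox17 not among them. Epcam, an epithelial adhesion gene, fell by 0.81 ± 0.11, 0 rose, and Foxa2 differed by -0.04 ± 0.10. The mean level over the 8 genes ran from 4.95 to 5.25 in Nkx2-1 high and from 5.14 to 5.35 in Nkx2-1 low. Of 10 lung and thyroid genes Nkx2-1, Pax8 and Hhex rose and 0 fell, and the rise of Nkx2-1 was set by the sort. Sftpc, Scgb1a1, Scgb3a2, Tg and Tshr, genes of mature lung or thyroid, stayed at or under background throughout by group mean. Sftpb, another lung gene, was above background in both groups, at means of 4.76 in Nkx2-1 high and 4.58 in Nkx2-1 low. Its difference of 0.18 ± 0.09 did not pass. The part of cell composition in the differences of Notch1, Notch2, Hey1 and Hey2 was not tested.

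Notch3, the receptor known from pericytes and vascular smooth muscle, stood at 8.04, 7.97 and 8.10 in Nkx2-1 high and at 7.91, 8.14 and 8.17 in Nkx2-1 low. The groups overlapped. The difference of -0.04 ± 0.09 did not pass (limma adjusted p = 0.870), and its 95% interval ran from -0.24 to 0.16. Pdgfrb and Acta2, genes of the same cell types, differed by 0.03 ± 0.16 and 0.31 ± 0.11, neither past the test. Of the 10 pericyte and smooth muscle genes listed, limma called 0 in either direction, and 4 had an unadjusted p under 0.05, 3 of them higher. The lower gene was Rgs5, a pericyte marker, at -0.53 ± 0.18 (limma adjusted p = 0.149).

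Notch4, a receptor best known from endothelium, pointed the other way from Notch1 and Notch2. It stood at 6.16, 6.46 and 6.14 in Nkx2-1 high and at 5.96, 6.11 and 5.91 in Nkx2-1 low. The groups did not overlap, though replicate 3 of Nkx2-1 high lay just above replicate 2 of Nkx2-1 low. The difference of 0.26 ± 0.10 did not pass (limma adjusted p = 0.212, unadjusted p = 0.0337), with a 95% interval from 0.02 to 0.50.

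The endothelial markers gave a mixed picture beside Notch4. Of 16 such genes 13 were above background, 3 rose (Flt4, Tek and Eng) and 0 fell, and the mean log2 level over the list ran from 4.92 to 5.01 in Nkx2-1 high and from 4.72 to 4.80 in Nkx2-1 low. By sign of the difference 8 of the 16 were higher and 8 lower, and at an unadjusted limma p under 0.05, 6 were higher and 1 lower. Pecam1 was above background in Nkx2-1 high alone, at 4.43 ± 0.14 (SD, n = 3), Tie1 in Nkx2-1 low alone, at 4.38 ± 0.07 (SD, n = 3), and Cdh5, Erg and Robo4 did not reach it in either group. The part of endothelial cells in the Notch4 values was not tested. In sorted bulk samples, fewer cells of a type and less RNA per cell cannot be told apart, here and for every gene below.

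The within-sample log2 ratio was taken for each pair of receptors and for Hey2 to Hey1, 7 pairs in all. The Notch1 to Notch3 ratio averaged -0.68 ± 0.06 (SD, n = 3) among Nkx2-1 high samples and -0.16 ± 0.03 (SD, n = 3) among the Nkx2-1 low ones. The Notch2 to Notch3 ratio was -0.05 ± 0.07 (SD, n = 3) and 0.42 ± 0.14 (SD, n = 3). In neither ratio did the groups overlap (exact two-sided permutation p = 0.1 each, the smallest possible, and 0.117 adjusted over the 7 pairs). The Notch1 to Notch2 ratio changed by -0.06, with overlapping groups (exact permutation p = 0.5). The ratios of Notch1, Notch2 and Notch3 to Notch4 changed by -0.82, -0.77 and -0.30, without overlap (exact permutation p = 0.1 each). Only the change of a ratio between groups can be read, since probes differ in brightness. With 3 samples against 3, none of the 7 could pass a threshold of 0.05, so the test cannot show whether the receptors moved apart. Each change is the gap between the log2 differences of the pair, so the ratios add no separate evidence.

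The upstream windows of Notch1 and Notch2, the receptors that fell, are shown with that of Hey2, the member that rose, because RBPJ acts through DNA near its targets. They are the 250 bases before the RefSeq start site in build GRCm38.p6, 5′ to 3′ on the gene's strand: chr2:26503823-26504072 (minus strand) for Notch1, chr3:98013288-98013537 (plus strand) for Notch2 and chr10:30842784-30843033 (minus strand) for Hey2. Capitals mark a match to the RBPJ motif GTGGGAA, read on either strand.
Hey2: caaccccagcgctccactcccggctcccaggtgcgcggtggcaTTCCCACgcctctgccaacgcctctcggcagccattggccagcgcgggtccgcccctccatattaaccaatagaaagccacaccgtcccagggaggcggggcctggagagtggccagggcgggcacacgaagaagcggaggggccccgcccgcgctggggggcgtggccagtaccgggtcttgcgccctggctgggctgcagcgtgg
Notch1: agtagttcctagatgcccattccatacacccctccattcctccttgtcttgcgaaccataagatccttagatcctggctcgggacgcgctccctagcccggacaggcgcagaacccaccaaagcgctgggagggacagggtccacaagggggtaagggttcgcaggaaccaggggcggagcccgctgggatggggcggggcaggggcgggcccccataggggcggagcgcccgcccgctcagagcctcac
Notch2: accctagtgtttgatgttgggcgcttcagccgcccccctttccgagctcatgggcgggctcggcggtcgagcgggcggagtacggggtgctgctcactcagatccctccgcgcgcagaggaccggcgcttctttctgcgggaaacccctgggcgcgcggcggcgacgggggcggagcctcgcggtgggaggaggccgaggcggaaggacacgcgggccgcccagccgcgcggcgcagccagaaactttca

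RefSeq windows were found for 9 of the 10 members, all but Hey1, and Dll1 has a pair of them, which makes 10 windows. GTGGGAA occurred in 1 of the 10, that of Hey2, at position -207 from the start site, on the minus strand relative to the gene. The motif was present in 5.42% of the 32851 promoter windows of the table. The shorter TGGGAA, which lies inside GTGGGAA, occurred at the same place in Hey2, in no other member window and in 21.6% of all windows. Of the other motifs searched on both strands, CACNAG, the N-box of Hes repressors, occurred in the windows of Notch1, Notch2, Notch3 and Dll4 (36.7% of all windows). CTCAAG, a form of the NKX2-1 core, occurred in 1 Dll1 window (13.3% of all). CACTTG, another NKX2-1 form, and CACGTG, an E-box searched as the Hey site, occurred in no member window (11.6% and 6.02% of all). A match is a description of the letters and no sign of binding.

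**Figure D2:**
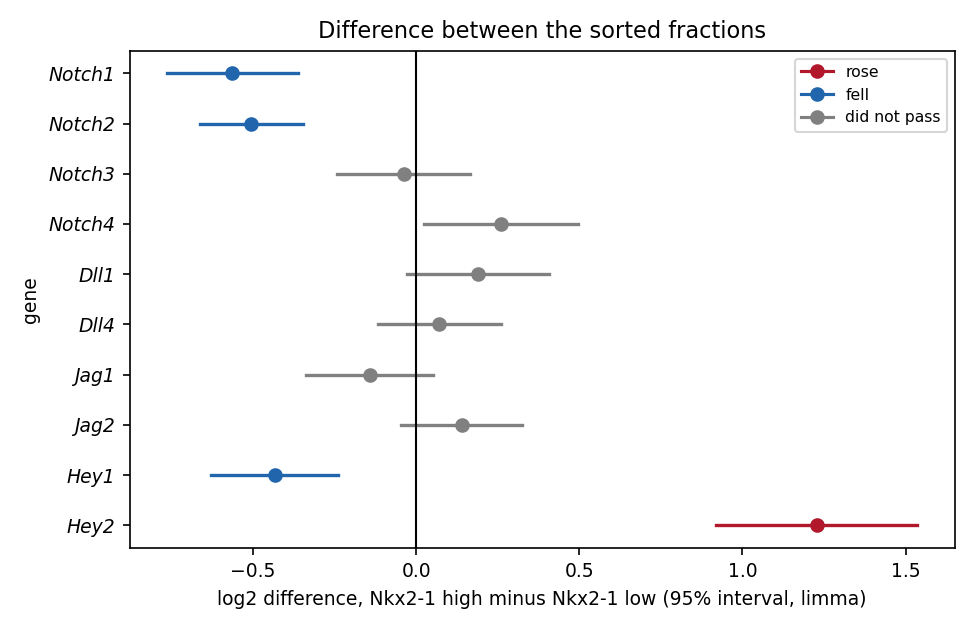
Difference in log2 expression between Nkx2-1 high and Nkx2-1 low (horizontal axis) for each member (vertical axis), with the 95% interval from limma; red rose, blue fell and grey did not pass. Hey2 lies alone to the right at 1.23, with Notch1, Notch2 and Hey1 between -0.56 and -0.43.

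None of the 4 ligands passed the test: 0 rose and 0 fell by limma, with 0 at an unadjusted p under 0.05. Jag1, the ligand with a broad role in vessels, lung and inner ear, stood at 7.52, 7.56 and 7.62 in Nkx2-1 high and at 7.60, 7.67 and 7.85 in Nkx2-1 low. The lowest Nkx2-1 low sample fell within the Nkx2-1 high range. The difference was -0.14 ± 0.09 (limma adjusted p = 0.440), with a 95% interval from -0.34 to 0.05.

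Jag2, a ligand of limb, thymus and airway, stood at 5.16, 5.01 and 5.06 in Nkx2-1 high and at 4.87, 4.90 and 5.04 in Nkx2-1 low. A single Nkx2-1 low sample reached into the Nkx2-1 high range, and the difference was 0.14 ± 0.08 (limma adjusted p = 0.425). Dll1, the ligand of somite segmentation and neurogenesis, stood at 4.63, 4.85 and 4.94 against 4.53, 4.63 and 4.69. Dll4, the ligand of arterial endothelium and vessel tip cells, stood at 4.83, 4.91 and 5.03 against 4.77, 4.88 and 4.90. Both overlapped between the groups, at differences of 0.19 ± 0.10 and 0.07 ± 0.08.

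Among 10 genes of presomitic mesoderm and somites, where Dll1 acts, 1 rose (Meox1, by 1.26 ± 0.24) and 1 fell, Tbx18. At an unadjusted limma p under 0.05, 1 was higher and 4 were lower. Tbx18 was not above background in Nkx2-1 high, so its level there was at least 1.05-fold lower than in Nkx2-1 low. Tbx6, the defining gene of presomitic mesoderm, differed by 0.12 ± 0.08 with overlapping groups. The list's mean level ran from 4.89 to 5.01 in Nkx2-1 high and from 4.97 to 5.07 in Nkx2-1 low, and its part in the Dll1 values was not tested.

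Dll1, Dll4 and Jag2 lay close to the background level of 4.27, where a real difference is compressed. The 95% intervals ran from -0.03 to 0.41 for Dll1, from -0.12 to 0.26 for Dll4 and from -0.05 to 0.33 for Jag2. Hey2, described next, averaged 4.87 in Nkx2-1 low, in the same range.

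The Hey genes moved in opposite directions. Hey2, a repressor known from the ventricular heart muscle and arteries, stood at 5.95, 5.97 and 6.38 in Nkx2-1 high and at 4.65, 4.93 and 5.04 in Nkx2-1 low. The lowest Nkx2-1 high sample was well above the highest Nkx2-1 low sample. It rose by 1.23 ± 0.14, a 2.34-fold higher level (limma adjusted p = 0.000813), with a 95% interval from 0.92 to 1.54. With the Nkx2-1 low level near background, this value can understate the change. By the size of the upward difference it ranked at 43 of the 19938 genes. Replicate 3 was the highest sample in each group, and without Nkx2-1 high replicate 3 the difference was 1.09 (limma adjusted p = 0.00136).

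Hey1, the close relative of Hey2, stood at 5.47, 5.41 and 5.50 in Nkx2-1 high and at 5.86, 5.79 and 6.04 in Nkx2-1 low. The groups did not overlap, and the Nkx2-1 high samples were the tighter set. It fell by 0.43 ± 0.09 on the log2 scale, or 1.35-fold (limma adjusted p = 0.0177). The call was lost without Nkx2-1 high replicate 1 (adjusted p = 0.0567), Nkx2-1 high replicate 2 (adjusted p = 0.0824) or Nkx2-1 low replicate 3 (adjusted p = 0.0584), in fits by limma, at differences from -0.44 to -0.36.

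The log2 ratio of Hey2 to Hey1 within a sample averaged 0.64 ± 0.21 (SD, n = 3) among Nkx2-1 high samples and -1.02 ± 0.18 (SD, n = 3) among the Nkx2-1 low ones. The change of 1.66 is the sum of the Hey2 rise and the Hey1 fall, so the ratio adds no separate evidence.

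For each member that passed, the genes of most similar profile were found by the root mean square distance between log2 values centred on each gene's mean over the 6 samples. Notch1 lay nearest to Lef1, a transcription factor gene of the Wnt pathway (distance 0.050), and to Heg1 (0.0573). Notch2 lay nearest to Net1 (0.0246) and to Rrm2, the gene of a ribonucleotide reductase subunit (0.0318). Hey1 lay nearest to Abcb6 (0.0361) and Mboat1 (0.0450), and Hey2 to Abhd2 (0.110) and Adamts5, a matrix protease gene (0.120), with differences of 1.28 ± 0.09 and 1.32 ± 0.16. With 6 samples in 2 groups such likeness rests largely on the difference between the groups, and it is given as a description.

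**Figure D3:**
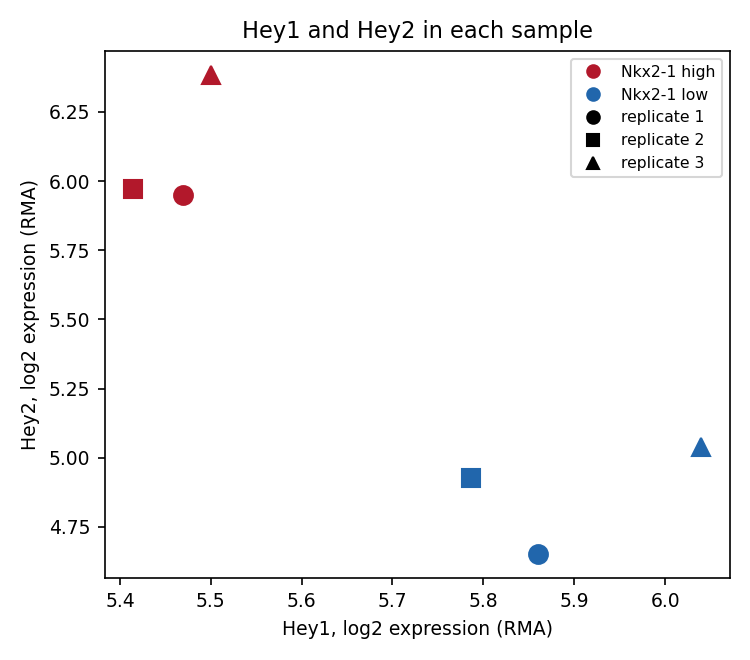
Log2 expression (RMA) of Hey1 (horizontal axis) and Hey2 (vertical axis) in each of the 6 samples; red is Nkx2-1 high, blue Nkx2-1 low, and marker shapes give the replicate number. The Nkx2-1 high samples sit at the upper left, with Hey1 from 5.41 to 5.50 and Hey2 from 5.95 to 6.38, and the Nkx2-1 low samples at the lower right.

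None of the other Notch targets listed passed. The 5 were Hes1, Hes5, Hes7, Heyl and Nrarp, and limma called 0, with 0 at an unadjusted p under 0.05. Hes1, the most general target of the pathway, stood at 7.09, 7.03 and 7.01 in Nkx2-1 high and at 6.92, 6.75 and 6.97 in Nkx2-1 low. The groups lay apart, but the difference of 0.17 ± 0.08 did not pass (limma adjusted p = 0.335). Hes5, the target of neural progenitors, differed by -0.01 ± 0.09, Heyl, the third Hey gene, by 0.13 ± 0.09 and Nrarp, a feedback inhibitor of the Notch complex, by -0.03 ± 0.11. The 95% interval of Hes5 ran from -0.23 to 0.20 and that of Heyl from -0.08 to 0.34, and whether they differed from Hey2 was not tested.

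Across the rest of the pathway, 45 genes were measured from a list arranged by role. Of these 2 rose (Ncstn and Dtx3), 1 fell (Dlk1) and 42 did not pass, against 6.0% of all genes called. The median difference was 0.05. The count fell to 0 without Nkx2-1 high replicate 2 (limma, with 12 at an unadjusted p under 0.05) and to 1 without Nkx2-1 high replicate 1, Nkx2-1 low replicate 2 or Nkx2-1 low replicate 3.

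Receptor cleavage genes, which encode the proteases that mature and cut Notch, were all on the higher side. All 9 measured had a difference above 0, also after median centring and cyclic loess; 1 of them, Ncstn, passed, and 6 had an unadjusted p under 0.05. Over all 19938 genes, 9488 were on the higher side and 1708 of those had an unadjusted p under 0.05. Ncstn, which encodes the nicastrin subunit of the gamma-secretase complex, stood at 8.46, 8.41 and 8.28 in Nkx2-1 high and at 8.05, 8.05 and 8.09 in Nkx2-1 low. The groups did not overlap, and the rise was 0.32 ± 0.08 (limma adjusted p = 0.0454). The call was lost with arrays centred on their medians (limma adjusted p = 0.0596) and on leaving out any sample but Nkx2-1 high replicate 3 (adjusted p up to 0.156). Furin, the protease that cuts the receptor during its maturation, differed by 0.33 ± 0.09 (limma adjusted p = 0.0640), and the list's median difference was 0.21.

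Of 5 other ligands and ligand-like genes, Dll3, Dlk1, Dlk2, Dner and Cntn1, only Dlk1 fell. All 5 had a difference under 0, as did 10450 of the 19938 genes. Dlk1, a ligand-like protein that lacks the receptor-binding DSL domain, stood at 9.60, 9.55 and 9.66 in Nkx2-1 high and at 9.82, 9.98 and 10.09 in Nkx2-1 low. It fell by 0.36 ± 0.09 on the log2 scale (limma adjusted p = 0.0454), lost with cyclic loess (limma adjusted p = 0.107) and on leaving out any sample but Nkx2-1 low replicate 1 (adjusted p up to 0.166).

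Dll3, a divergent ligand that acts inside the cell and marks neuronal and somite precursors, stood at 4.92, 4.72 and 5.24 in Nkx2-1 high and at 5.33, 5.33 and 5.74 in Nkx2-1 low. Again the groups were separate, with replicate 3 the highest in each, and the difference of -0.51 ± 0.15 did not pass (limma adjusted p = 0.0874). Of the 6 fits without a single sample it passed in 1, without Nkx2-1 high replicate 3 (limma difference -0.64, adjusted p = 0.0333), and it was as small as -0.37 without Nkx2-1 low replicate 3 (limma adjusted p = 0.215). Dner, a ligand-like gene of neurons, differed by -0.57 ± 0.16 (limma adjusted p = 0.0814) and passed in the same 1 of these 6 fits (limma difference -0.78, adjusted p = 0.00366). Without Nkx2-1 high replicate 2 it was -0.40 (limma adjusted p = 0.225). Over all alternative fits Dll3 passed in 4 of 17 and Dner in 5 of 18. Among these was the fit with the replicate number as a block (limma adjusted p = 0.00776 and 0.0497). The neuronal markers described with Notch1 were lower too, and their part in the Dll3 and Dner values was not tested.

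In the nuclear complex, Rbpj, the gene of the DNA-binding partner of every Notch receptor, stood at 8.26, 8.36 and 8.13 in Nkx2-1 high and at 8.51, 8.24 and 8.20 in Nkx2-1 low. The groups overlapped, at a difference of -0.07 ± 0.10 (limma adjusted p = 0.788). Of the 8 nuclear genes limma called 0, with 2 higher at an unadjusted p under 0.05. The result for Maml2, a nuclear gene with several rows, depended on the row rule. Its brightest row differed by 0.25 ± 0.09 (limma adjusted p = 0.164). With the mean over its rows the difference was 0.33 ± 0.07 and passed (limma adjusted p = 0.0288). Lfng, a sugar transferase that tunes which ligand a receptor answers, differed by -0.15 ± 0.10. Of the 5 genes of receptor glycosylation 0 passed by limma, with 0 at an unadjusted p under 0.05. Of the 4 of ligand endocytosis 0 passed, and 2 had an unadjusted p under 0.05, in opposite directions. Mib1 differed by -0.27 ± 0.07 (limma adjusted p = 0.0614) and Neurl1b by 0.30 ± 0.10 (limma adjusted p = 0.147).

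Among 9 inhibitors and modulators 1 rose and 0 fell. Dtx3, a member of the Deltex family of ubiquitin ligases, stood at 8.34, 8.37 and 8.30 in Nkx2-1 high and at 7.83, 8.00 and 7.89 in Nkx2-1 low. It rose by 0.43 ± 0.08 (limma adjusted p = 0.0119), and the call was lost in 4 of 18 alternatives. Of these, 1 was the fit without Nkx2-1 high replicate 2 (limma adjusted p = 0.0607). The others were without both samples numbered 3 (limma adjusted p = 0.0536), a linear model without eBayes (adjusted p = 0.0823) and a threshold of 0.01.

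**Figure D4:**
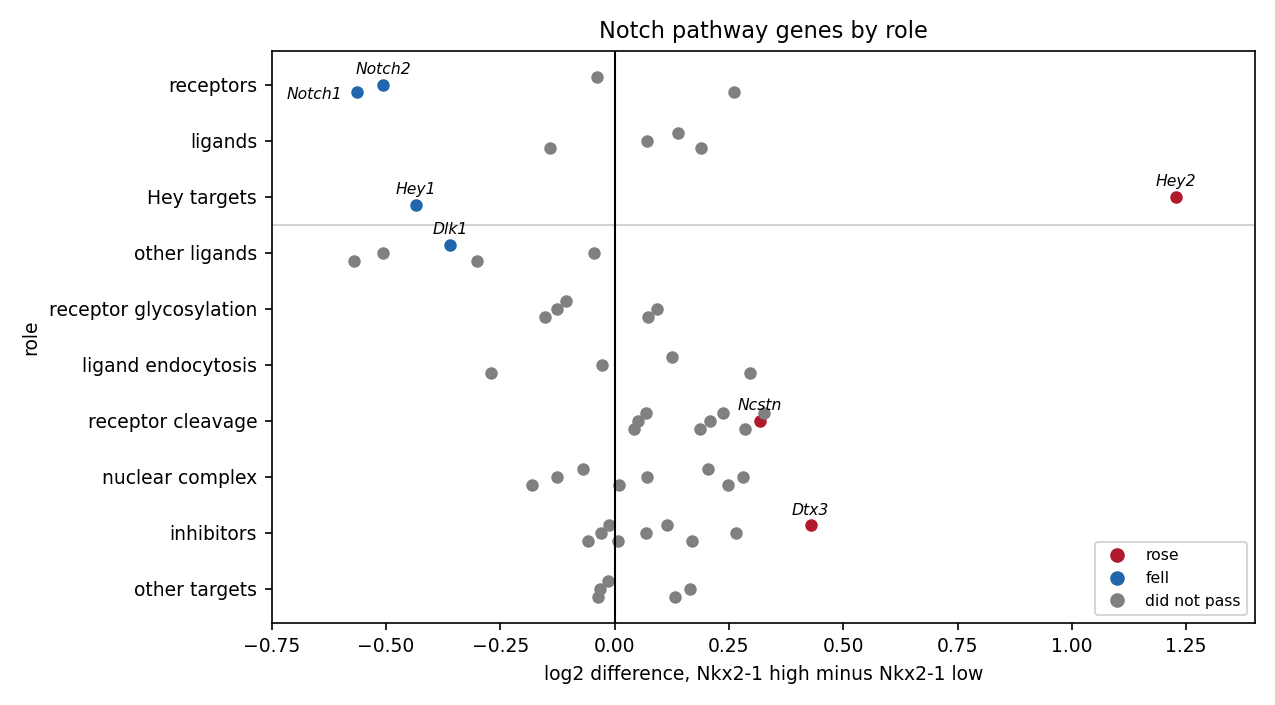
Difference in log2 expression between Nkx2-1 high and Nkx2-1 low (horizontal axis) for the members (above the grey line) and the other pathway genes (below it), by role (vertical axis); each point is a gene, red rose, blue fell and grey did not pass, and points are spread vertically for legibility. All 9 receptor cleavage genes lie right of 0 and all 5 other ligands left of it, and Hey2 is far from every other gene.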

How the data were processed

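The series matrix table holds log2 expression values that the authors deposited, with RMA named in the submitters' processing notes. That the scale is log2 was inferred from RMA and from array medians of 4.98 to 5.06. The RMA version is not given in the sources used here, nor is a genome build. RNA was amplified before labelling, per the labels' protocols, which can change relative signals between transcripts. Of 29011 rows, 21789 carried 1 gene symbol in GEO's platform annotation, 1621 several and 5601 none; the row with the highest mean stood for each of 19938 genes.

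The test was limma 3.58.1 under R 4.3.3 (lmFit, eBayes, group as the only term, all 6 samples), with Benjamini-Hochberg adjustment over all genes and a threshold of 0.05. The fit was tested on simulated data. The background level is the 95th percentile of the row means of 1210 olfactory and vomeronasal receptor rows, and no detection calls or scan batches were used here. The number of arrays limits the precision. Promoters come from RefSeq (GRCm38.p6). Plots used matplotlib 3.10.9 and Python 3.11.15.

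The members and lists were chosen with earlier results of these data known. Named genes are the members, pathway genes that passed, a set of key pathway and marker genes, the leading genes of each marker list, and the 2 nearest profiles of each member that passed. Furin, Dner, Mib1, Neurl1b, Maml2 and Rgs5 were named with their values known. Alternatives were other scalings, filters, variance models, row rules and thresholds, a replicate block, and fits without single samples.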

Additional observations from a re-analysis of the deposited data

How the results depend on the processing

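Nkx2-1 passed in all 18 alternatives, and Notch2 did too. Notch1 and Hey2 each lost the call in 1, a linear model without eBayes (adjusted p = 0.0958 and 0.0935), and Hey1 in 6, where the adjusted p reached 0.121. No member that passed changed sign, and none of the other 6 passed in any alternative that could be run; Dll1, Dll4 and Jag2 fell below the filter on genes brighter than the median gene. Notch3 turned from -0.04 to 0.01 without Nkx2-1 low replicate 3.

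The number of members called was 4, was 1 without eBayes, and ran from 3 to 4 in fits without 1 sample. The number of all genes called, 1196, was 507 at a threshold of 0.01 and 89 without eBayes, and ran from 624 to 1086 in fits without 1 sample. The 3 calls among the other pathway genes became 6 with only genes above background, 7 with only genes brighter than the median gene, 6 with a mean-variance trend and robust eBayes and 8 with array weights. They became 0 at a threshold of 0.01 (16 at an unadjusted p under 0.05) and 0 without eBayes (11), and ran from 0 to 4 in fits without 1 sample. The cause was not tested.

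With the replicate number as a block, 4 members were called, 5 other pathway genes and 1470 genes in all. Deviations from the group means correlated at 0.181, -0.0041 and 0.277 between samples of the same number. Between samples of different numbers the correlations ran from -0.269 to 0.146. As the samples numbered 2 did not correlate, the numbers were not taken as pairs. This check cannot decide on pairing, since a sample near its group mean leaves little to correlate. The second principal component ran in replicate order in both groups. It was 10.5, 4.82 and -16.0 in Nkx2-1 high and 11.1, -0.157 and -10.3 in Nkx2-1 low. Whether samples of a number share a source was not tested. Signal near background limits Dll1, Dll4 and Jag2.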

Other observations

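The sample numbered 3 had the highest value in both groups for 6 of the 10 members, Notch3, Dll1, Dll4, Jag1, Hey1 and Hey2, against 17.1% of all genes. Replicate 2 did so for 1 member, Notch4, and replicate 1 for 0. The pattern was noticed after the values were seen, no test was run, and the cause was not tested.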
